A study of Homo sapiens with 12 samples.

Results

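The difference of the doxorubicin responses between the 2 labelled genotypes was examined gene by gene. For each gene it is the log2 change after doxorubicin in cells with a labelled 17p deletion minus the log2 change in cells labelled 17p-intact, called here the response difference. A positive value means a more positive response in the deleted cells, and a negative value a more negative one. Of 60660 gene identifiers, 21803 had enough counts to be tested, and these are the genes described.

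RNA came from 12 libraries, 3 in each of 4 groups, of cells labelled HS578T, an established triple-negative breast cancer line, and collected at 48 h. The intact groups, labelled WT and titled Cas9, received DMSO, the vehicle, or 170 nM doxorubicin. The deleted groups, labelled as a knockout of 1 copy of 17p and titled 17PKO, received DMSO or 1 µM doxorubicin. Whether either population is a clone is not stated in the labels, nor is which part of 17p was removed. Dose and genotype cannot be told apart in the response difference, and neither can any other difference between the cell populations. In bulk RNA, fewer cells of a kind and less RNA per cell cannot be told apart either.

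Doxorubicin is an anthracycline that traps topoisomerase II on cut DNA. DNA breaks of this kind activate p53, a transcription factor that induces cell cycle inhibitors such as CDKN1A and death receptors such as FAS. CDKN1A inhibits cyclin-dependent kinases, and promoters of mitotic genes are then bound by a repressor complex at an element named CHR, often with CCAAT boxes nearby. Broken DNA can also activate NF-kB and, through DNA that reaches the cytosol, the interferon pathway, whose target promoters carry an element named ISRE. G1/S genes are controlled by E2F factors.

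The windows before the transcription starts of genes with a large response difference show these elements in sequence. The 250 bases before the start were read from RefSeq (GRCh38.p14), 5′ to 3′ on the gene's strand, and capitals mark matches to the element named. Each pair consists of 2 members of a list with the lowest p in the response difference among those with a match. FAS, a death receptor (chr10:88991181-88991430, plus strand), and SESN1, a stress-induced regulator of growth signalling (chr6:109008989-109009238, minus strand), hold a decamer that is only part of a p53 site. Both were higher in the response difference. PLK1, a mitotic kinase (chr16:23678639-23678888, plus), and CCNB2, a mitotic cyclin (chr15:59104896-59105145, plus), hold a CHR element, and both were lower. In both, the element starts 29 bases before the start.
FAS: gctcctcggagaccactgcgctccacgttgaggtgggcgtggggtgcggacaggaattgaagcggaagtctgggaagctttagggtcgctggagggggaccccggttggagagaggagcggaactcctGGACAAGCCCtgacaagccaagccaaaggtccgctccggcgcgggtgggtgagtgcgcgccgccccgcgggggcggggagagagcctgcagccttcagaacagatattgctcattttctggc
SESN1: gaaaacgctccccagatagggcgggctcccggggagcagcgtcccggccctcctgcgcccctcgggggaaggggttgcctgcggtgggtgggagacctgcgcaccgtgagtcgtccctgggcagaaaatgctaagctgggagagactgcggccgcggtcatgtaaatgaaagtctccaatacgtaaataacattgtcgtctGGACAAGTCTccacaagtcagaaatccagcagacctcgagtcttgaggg
PLK1: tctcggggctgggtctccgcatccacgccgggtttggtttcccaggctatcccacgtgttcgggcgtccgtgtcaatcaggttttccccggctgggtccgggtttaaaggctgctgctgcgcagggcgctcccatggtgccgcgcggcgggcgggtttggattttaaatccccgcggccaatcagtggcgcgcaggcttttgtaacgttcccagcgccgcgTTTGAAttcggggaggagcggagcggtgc
CCNB2: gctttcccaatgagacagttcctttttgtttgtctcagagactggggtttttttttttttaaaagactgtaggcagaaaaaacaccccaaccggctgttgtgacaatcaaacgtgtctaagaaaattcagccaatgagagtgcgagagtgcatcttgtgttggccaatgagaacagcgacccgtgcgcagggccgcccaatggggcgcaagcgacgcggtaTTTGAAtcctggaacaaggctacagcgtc
TYMS, which makes thymidylate for DNA synthesis (chr18:657403-657652, plus), and PCNA, the sliding clamp of DNA polymerase (chr20:5126623-5126872, minus), hold an E2F element on the opposite strand. MX1, an antiviral GTPase (chr21:41431800-41432049, plus), and HERC5, the ligase that attaches ISG15 to proteins (chr4:88456869-88457118, plus), hold ISRE matches on the opposite strand, 3 of them in HERC5. TNFAIP3, a feedback inhibitor of NF-kB (chr6:137867009-137867258, plus), and IL32, a cytokine (chr16:3065153-3065402, plus), hold kappaB matches, which overlap in IL32. All 6 genes were higher in the response difference. The MX1 window lies inside the annotated gene, which begins at 41420304.
TYMS: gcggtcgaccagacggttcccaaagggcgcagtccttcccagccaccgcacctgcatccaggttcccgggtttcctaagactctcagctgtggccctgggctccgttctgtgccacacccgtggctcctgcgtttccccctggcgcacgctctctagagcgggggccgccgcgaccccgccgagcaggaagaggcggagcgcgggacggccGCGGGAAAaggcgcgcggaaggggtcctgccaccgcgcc
PCNA: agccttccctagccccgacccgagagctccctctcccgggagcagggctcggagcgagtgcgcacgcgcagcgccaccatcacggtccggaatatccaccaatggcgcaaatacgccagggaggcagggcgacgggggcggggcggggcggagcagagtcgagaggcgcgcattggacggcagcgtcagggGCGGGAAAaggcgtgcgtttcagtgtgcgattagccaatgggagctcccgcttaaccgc
MX1: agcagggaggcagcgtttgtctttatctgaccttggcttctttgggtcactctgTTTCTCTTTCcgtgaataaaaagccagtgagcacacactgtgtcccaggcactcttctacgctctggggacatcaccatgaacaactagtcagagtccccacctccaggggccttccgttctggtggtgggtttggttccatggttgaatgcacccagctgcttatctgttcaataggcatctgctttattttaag
HERC5: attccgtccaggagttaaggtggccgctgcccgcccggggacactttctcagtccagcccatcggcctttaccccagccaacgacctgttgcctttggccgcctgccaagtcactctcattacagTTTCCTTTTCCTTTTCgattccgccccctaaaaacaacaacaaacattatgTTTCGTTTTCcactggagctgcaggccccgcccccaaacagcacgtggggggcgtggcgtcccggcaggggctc
TNFAIP3: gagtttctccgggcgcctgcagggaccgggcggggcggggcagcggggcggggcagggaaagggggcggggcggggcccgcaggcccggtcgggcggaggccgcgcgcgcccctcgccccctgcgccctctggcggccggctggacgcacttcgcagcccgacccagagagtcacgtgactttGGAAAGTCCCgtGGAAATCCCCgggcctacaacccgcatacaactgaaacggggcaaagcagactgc
IL32: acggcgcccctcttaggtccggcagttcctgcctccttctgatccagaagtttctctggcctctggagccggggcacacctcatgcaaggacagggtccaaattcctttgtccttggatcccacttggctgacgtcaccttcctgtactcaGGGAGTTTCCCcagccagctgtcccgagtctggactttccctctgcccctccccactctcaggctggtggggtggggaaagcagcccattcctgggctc

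Among list members with such a window, matches were counted on both strands in any window of a gene. The CHR letters TTTGAA were in 16 of 29 G2/M genes (55.2%), against 4383 of 27305 genes with a window (16.1%). CCAAT was in 82.8% of the G2/M genes, against 37.0%. It was not particular to them: 88.9% of cholesterol and fatty acid synthesis genes and 86.4% of replication-dependent histone genes held it. An E2F element (TTT, any 2 bases, CGC) was in 15 of 34 G1/S genes (44.1%, against 7.15%). An ISRE (GAAA, any 2 bases, GAAA) was in 19 of 30 interferon-stimulated genes (63.3%, against 3.71%). A kappaB element was in 15 of 23 NF-kB and inflammatory genes (65.2%, against 6.28%). The p53 decamer, only part of a site, was in 5 of 25 p53 targets, against 6.80% of all genes with a window. Among tested genes with a window, CHR was in 12.2%, CCAAT in 40.7% and E2F in 10.4%. ISRE was in 3.38% of these, kappaB in 8.0% and the p53 decamer in 6.48%. Of such genes, those higher in the response difference held E2F in 9.23%, ISRE in 4.52%, kappaB in 10.7% and the p53 decamer in 9.1%. Those lower in it held CHR in 17.3% and CCAAT in 47.4%. Patterns were counted separately and can overlap one another. A match describes letters in a window and was not tested as a binding site.

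Library totals ran from 66150539 to 99142099 counts, so that 3 counts stood for 0.0303 to 0.0454 CPM (counts scaled to a fixed library size). Mitochondrial counts made up 6.90% of deleted DMSO replicate 2 and 5.54% of intact doxorubicin replicate 1, against 2.61% to 3.57% in the other 10 libraries. An identity check on chromosome-specific transcripts found that 12 of 12 libraries differed from the recorded karyotype of HS578T, so that name is used here only as a label. VIM, a mesenchymal intermediate filament, was at 1010 CPM or above in all 12 libraries on their total counts. The epithelial genes EPCAM and CDH1 and the hormone receptor genes ESR1 and PGR were at 0.415 CPM or below. The receptor gene ERBB2, checked with these, was at 67.9 to 116 CPM. Genes of 17p had a median genotype difference in DMSO (deleted over intact) of -0.12 log2, against -0.24 for 17q and 0.04 for all genes tested.

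The response difference passed the threshold, an adjusted p under 0.05 in edgeR's quasi-likelihood test over all genes tested, in 3705 genes (17.0% of those tested). It was higher in 2235 (10.3%) and lower in 1470 (6.74%). The lower count depended more on the processing: it was 2608 with each library's GC trend removed and 933 without deleted doxorubicin replicate 3. The unadjusted p was under 0.05 in 6582 genes. Sizes were larger in the higher direction: the median was 1.40 among the 2235 and -0.76 among the 1470, and 452 against 23 genes exceeded 3 on the log2 scale. The median over all genes tested was -0.03. Separate cultures are not named in the labels, so each p reflects variation among these libraries, part of which may be technical.

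Nearly all calls within a genotype were in the deleted cells. Doxorubicin changed 6684 genes in deleted cells at 1 µM (30.7%) and 13 in intact cells at 170 nM (0.0596%, with 2504 at an unadjusted p under 0.05). DESeq2 called 467 genes in intact cells, and edgeR called 488 with each library's GC trend removed. Spearman correlations of a library's deviation from its group mean with transcript GC were -0.437, 0.474 and -0.16 in intact doxorubicin. They were 0.349, -0.501 and 0.426 in deleted DMSO, and between -0.049 and 0.054 in the other groups. Among the 2235 higher genes, 2162 rose in deleted cells, 72 did not pass there and 1 fell. Among the 1470 lower genes, 1327 fell in deleted cells and 143 did not pass. Of the 6684 genes changed in deleted cells, 3490 (52.2%) also passed in the response difference. For 1804 higher genes (80.7%) and 1045 lower genes (71.1%), each of the 3 treated deleted libraries lay beyond all 9 others. The higher and lower genes were picked from the same 12 libraries, so these counts are partly fixed by the selection. Over all genes tested, 17.5% rose and 13.1% fell in deleted cells. The share of all genes with such a separation was not computed.

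Effects in intact cells were smaller and were only weakly correlated with those in deleted cells. Over the 11054 genes with a mean of at least 5 CPM, the SD of the log2 effect was 0.19 in intact and 0.61 in deleted cells. Pearson's r between the 2 effects was 0.089 and Spearman's rho 0.105, across genes, which are not independent replicates. The effects share no library, but their errors need not be independent. Deviations from group means correlated at 0.328 between intact doxorubicin replicate 1 and deleted DMSO replicate 2. These 2 libraries enter the effects with opposite signs. How far this or measurement error affected r was not tested. For 2451 genes of at least 5 CPM (22.2%) the 95% interval of the response difference lay within 0.5 log2 of 0, and for 8529 (77.2%) within 1 log2. The median distance from estimate to either end of that interval was 0.38 log2.

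**Figure D1:**
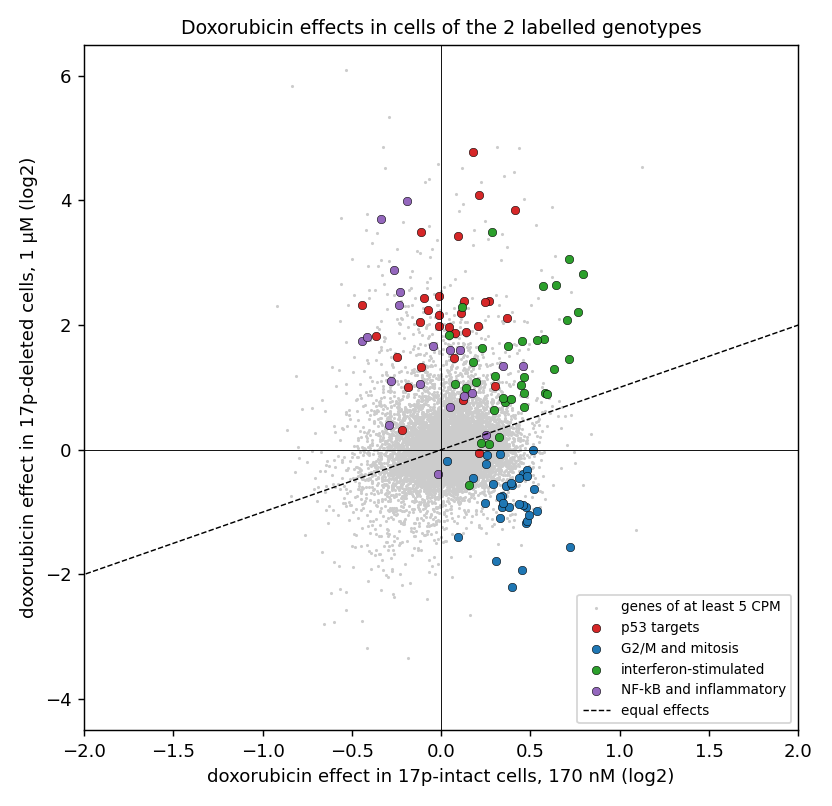
Doxorubicin effect in 17p-intact cells at 170 nM (x axis, log2) against that in 17p-deleted cells at 1 µM (y axis, log2, on a wider scale), for the 11054 genes of at least 5 CPM (grey) and the members of 4 lists (colours). The dashed line marks equal effects. Most p53 targets, NF-kB genes and interferon-stimulated genes lie above the line and most G2/M genes below it.

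A response difference can arise where the genotypes already differed in DMSO or where they came to differ in doxorubicin. Of the 2235 higher genes, 1116 differed between genotypes only in the treated libraries, 278 only in DMSO, 542 in both with the same sign, 274 in both with opposite signs and 25 in neither. Of the 1470 lower genes these counts were 672, 285, 347, 133 and 33. Across these classes, 508 of the higher and 398 of the lower genes had a genotype difference in DMSO that was smaller in size after doxorubicin. The response difference itself contains the DMSO libraries, so such a change is partly built into the selection. Over all genes tested, 34.9% differed between genotypes in DMSO and 47.8% in doxorubicin. TRAF1, an adaptor of TNF receptors, showed opposite signs. It was 9.91, 10.2 and 9.45 CPM in intact DMSO, 7.95, 8.76 and 9.21 in intact doxorubicin, 1.38, 1.11 and 1.92 in deleted DMSO and 23.9, 24 and 22 in deleted doxorubicin. Deleted cells were thus the lowest of the 4 groups in DMSO and the highest in doxorubicin, with no overlap between genotypes in either condition. The response difference of TRAF1 was 4.17 ± 0.22 (SE), adjusted p = 7.87e-08.

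Members of 28 gene lists gave 710 entries for 700 distinct genes, of which 672 entries had enough counts to be tested. Of the 38 others, 2 symbols had no identifier and the rest had at most 29 counts in a library. Each list is described by its counts and median beside those of all genes tested (17.0% passed, median -0.03).

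p53 targets were the list with the highest median, 2.12. Of 31 members tested of 32, 30 were higher and none lower. All 30 also rose in deleted cells, and none passed in intact cells by edgeR's test, where 6 had an unadjusted p under 0.05 and the median effect was 0.07. CDKN1A (chromosome 6, 36676460 to 36687339, hg38, a protein-coding gene) was at 62.7, 65.0 and 72.0 CPM in intact DMSO, 63.2, 88.5 and 79.8 in intact doxorubicin, 82.8, 50.7 and 84.5 in deleted DMSO, and 1297, 1115 and 1282 in deleted doxorubicin. The first 3 groups overlapped, and the 3 treated deleted libraries stood far above them. The response difference was 3.87 ± 0.25 (SE), 95% interval 3.33 to 4.41, adjusted p = 2.47e-07, made of 4.08 in deleted and 0.21 in intact cells.

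MDM2, the ubiquitin ligase that degrades p53 (chromosome 12, 68808176 to 68850686), went from 187, 230 and 176 CPM in deleted DMSO to 2131, 2114 and 2162 in deleted doxorubicin. Intact libraries were at 119, 118 and 114 CPM in DMSO and 137, 93.6 and 143 in doxorubicin. The 3 treated deleted libraries of MDM2 differed little among themselves, while the intact groups overlapped and deleted cells were already higher than intact ones in DMSO. Its response difference was 3.34 ± 0.20 (SE), adjusted p = 1.69e-07.

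BTG2, an antiproliferative gene, was at 11.4 to 16.9 CPM in the 9 other libraries and at 180, 190 and 194 CPM in deleted doxorubicin, a response difference of 3.44 ± 0.12 (SE). GDF15, a secreted stress cytokine, was at 3.38 to 6.08 CPM in the 9 others and at 134, 144 and 144 CPM in deleted doxorubicin, a response difference of 4.60 ± 0.25 (SE). In neither gene did the treated deleted libraries overlap with the rest. The proapoptotic genes BBC3 and BAX differed by 3.60 and 1.19, the death receptor genes FAS and TNFRSF10B by 2.32 and 2.17, the DNA repair genes DDB2 and XPC by 1.93 and 0.73, and FDXR, a mitochondrial reductase, by 2.48. The smallest response difference among the 30 was 0.53, in PLK2, a polo-like kinase. EDA2R, a receptor of the TNF receptor family, was near 0 counts outside the treated deleted libraries, so its fitted value is not given. POLK, a translesion DNA polymerase, was the member that did not pass, at -0.26 with a 95% interval from -0.83 to 0.30. Of 19 long noncoding RNAs of stress responses, 7 were higher, 1 was lower and 11 did not pass (median 0.49). The lowest p were those of PURPL, at 4.83 ± 0.37 (SE), from 0.747 to 2.01 CPM in the 9 other libraries to 32.6, 40.6 and 39.2 CPM, and MIR34AHG, the host transcript of miR-34a, at 4.13 ± 0.31.

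**Figure D2:**
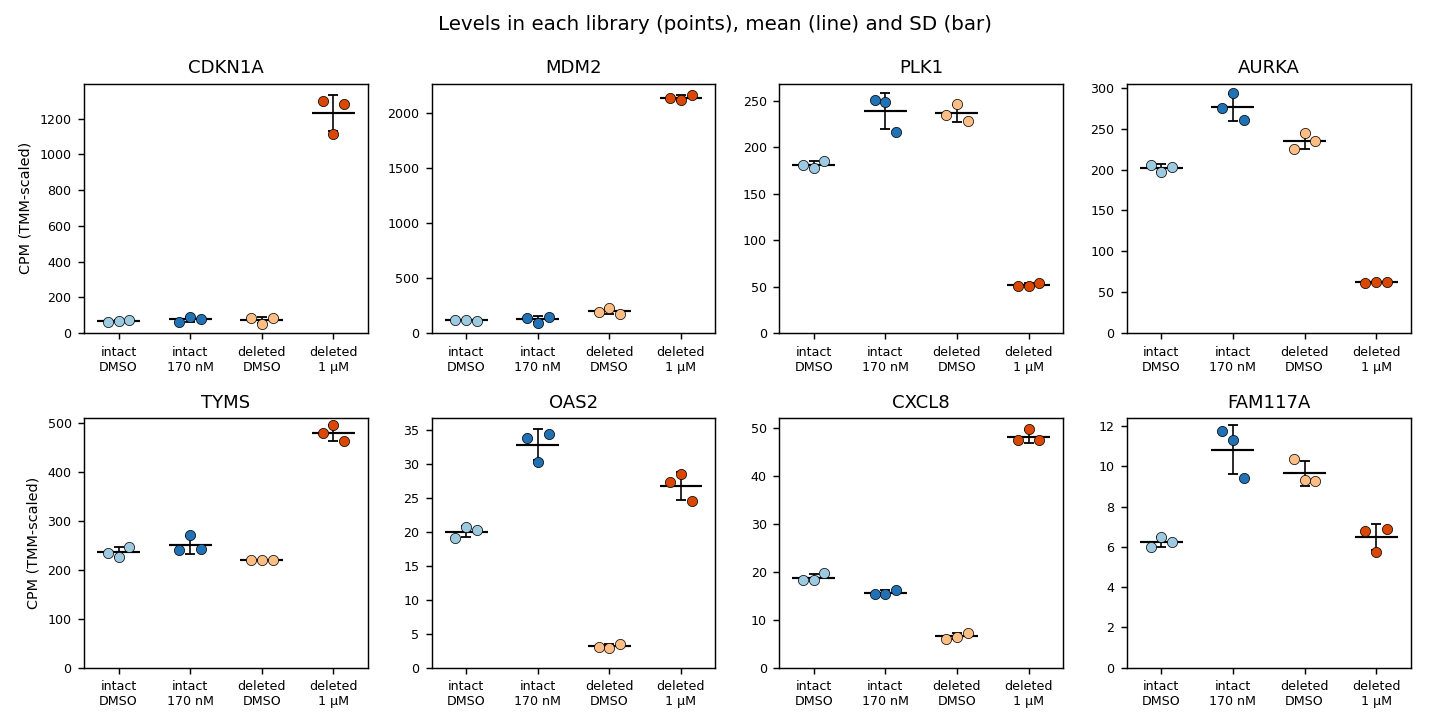
Level of 8 genes in each of the 12 libraries (points, CPM on TMM-scaled library sizes), with the mean (line) and SD (bar, n = 3) of each group. CDKN1A and MDM2 are high only in the 3 treated deleted libraries, PLK1 and AURKA are lowest there, OAS2 and CXCL8 are lowest in deleted DMSO, and FAM117A rose in intact and fell in deleted cells.

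G2/M and mitosis genes had the lowest median, -1.10. Of 35 members, 30 were lower and none higher. In deleted cells 29 fell; in intact cells none passed by edgeR's test, although 31 had an unadjusted p under 0.05, and the median effect there was 0.39. In DMSO, 21 were higher in deleted than in intact cells, as were 18.8% of all genes tested. PLK1 (chromosome 16, 23677656 to 23690367) was at 180, 178 and 185 CPM in intact DMSO, 251, 248 and 216 in intact doxorubicin, 234, 246 and 228 in deleted DMSO, and 51.0, 50.2 and 53.5 in deleted doxorubicin. The treated deleted libraries were the lowest, without overlap. The response difference was -2.59 ± 0.12 (SE), adjusted p = 1.57e-08.

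AURKA, a centrosome kinase (chromosome 20, 56369389 to 56392337), was at 206, 197 and 204 CPM in intact DMSO, 275, 294 and 260 in intact doxorubicin, 226, 245 and 235 in deleted DMSO and 61.7, 62.5 and 62.1 in deleted doxorubicin. All 3 treated intact libraries were above, and all 3 treated deleted libraries below, every DMSO library. The response difference was -2.37 ± 0.11 (SE); the intact part, 0.45, had an adjusted p of 0.052. CCNB1, the mitotic cyclin, differed by -2.09, HMMR, a spindle protein, by -2.29, and the checkpoint kinase gene BUB1 by -1.65. CDK1, the kinase that CCNB1 activates, differed by only -0.40, and FOXM1, a transcription factor of mitotic genes, by -0.49. MKI67, a proliferation antigen, did not pass at -0.81 (interval -1.42 to -0.21, adjusted p = 0.0641, though it passed under 5 alternatives), nor did PTTG1, AURKB, MAD2L1 and NUSAP1. TOP2A, the drug's own target, was at 948, 967 and 939 CPM in intact DMSO, 1445, 1232 and 1408 in intact doxorubicin, 1080, 1289 and 1054 in deleted DMSO, and 758, 712 and 736 in deleted doxorubicin. It differed by -1.15 ± 0.13 (SE), with the treated deleted libraries lowest, and TOP2B, the other topoisomerase II, by -0.66.

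G1/S and replication genes went the other way at smaller sizes. Of 39 members, 15 were higher and none lower, with a median of 0.38 and a highest value of 1.06, in E2F1, the factor that drives these genes. The count was 8 without any 1 of the 3 intact DMSO libraries, 9 without deleted doxorubicin replicate 1 or 2, and 22 with library totals. TYMS was at 226 to 272 CPM in the 6 intact libraries, 220 in each deleted DMSO library and 480, 495 and 463 in deleted doxorubicin. Its intact groups overlapped, and its treated deleted libraries were the highest, a response difference of 1.03 ± 0.11 (SE), adjusted p = 2.13e-05. PCNA was at 269, 285 and 286 CPM in deleted DMSO and 540, 560 and 497 in deleted doxorubicin, and between 200 and 262 CPM in the intact libraries, a response difference of 0.97 ± 0.15. The cyclin genes CCNE1 and CCNE2 differed by 0.69 and 0.62. Helicase subunits were mostly not past: MCM7 differed by 0.52, and MCM2 to MCM6 were between -0.08 and 0.40 and did not pass.

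Of 31 homologous recombination and Fanconi genes, 5 were higher and none lower (16.1%, against 17.0% of all genes tested), with RAD52 and FANCE, at 0.81 each, the largest. The count was 13 with the GC trend removed, 9 without the 2 libraries of high mitochondrial share and 8 with library totals. Of 24 replication-dependent histone genes tested, 8 were lower and none higher, with a median of -0.74. H2AC6 differed by -2.49 ± 0.25 (SE), from 4.02 to 4.32 CPM in deleted DMSO to 1.06, 0.565 and 0.879 CPM in deleted doxorubicin, against 6.06 to 7.75 CPM in the intact libraries. H2BC12, another histone gene, differed by -1.28 ± 0.16. Histone genes share near-identical stretches, so reads may have been split or lost among copies.

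Interferon-stimulated genes rose in deleted cells from a lower starting level. Of 40 members tested, 23 were higher in the response difference (10.3% of all genes tested were) and 1, IFITM2, lower, with a median of 0.89. In deleted cells 36 rose, and in intact cells 4 did (0.0275% of all genes tested rose and 0.0321% fell there), at a median effect of 0.38. In DMSO 30 of the 40 were lower in deleted than in intact cells, against 16.2% of all genes tested (median -0.86); in doxorubicin 14 were lower and 14 higher (21.9% and 25.9% of all genes tested; median 0.02). OAS2, an antiviral sensor enzyme (chromosome 12, 112978395 to 113011723), was at 19.1, 20.8 and 20.3 CPM in intact DMSO, 33.9, 30.4 and 34.5 in intact doxorubicin, 3.08, 2.96 and 3.55 in deleted DMSO and 27.4, 28.6 and 24.5 in deleted doxorubicin. No 2 of the 4 groups overlapped, and treated deleted libraries lay below treated intact ones. The response difference was 2.35 ± 0.15 (SE), adjusted p = 2.27e-07, from 3.07 in deleted and 0.71 in intact cells, both past the threshold.

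MX2, an antiviral GTPase, was at 11.2 to 11.7 CPM in intact DMSO, 19.1 to 20.7 in intact doxorubicin, 3.13 to 3.43 in deleted DMSO and 22.5 to 23.4 in deleted doxorubicin, a response difference of 2.02 ± 0.13 (SE). Its treated groups were close to each other but did not overlap, and the genotype difference there was 0.19 and did not pass, against -1.82 in DMSO. TRIM22, an antiviral ligase, was at 2.77 to 3.54 CPM in intact and 1.45 to 2.62 CPM in deleted DMSO and at 3.02 to 4.30 CPM in intact doxorubicin, and it reached 21.1, 25.8 and 22.9 CPM in deleted doxorubicin, a response difference of 3.21 ± 0.28. IFIT1, an antiviral RNA-binding protein, rose in both genotypes, by 0.59 and 0.90, with a response difference of 0.31 (interval 0.02 to 0.59) that did not pass but did under 5 alternatives (adjusted p from 0.00636 to 0.0386).

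Antigen presentation genes had 3 of 21 members higher and none lower (14.3%, median 0.44): TAP1, the peptide transporter, at 1.79 ± 0.27 (SE), and the trimming peptidases ERAP2 at 1.47 ± 0.15 and ERAP1 at 0.80. In DMSO, 17 of these 21 genes were lower in deleted cells (16.2% of all genes tested). Of 8 tested genes of cytosolic DNA sensing, 3 were higher: STING1, the adaptor, at 1.31 ± 0.16, CGAS, the DNA sensor, at 0.57, and AIM2, an inflammasome sensor, at 2.31. AIM2 was at 0.0814 to 0.189 CPM in deleted DMSO, and its treated deleted level, 0.731 to 0.816 CPM, stayed below the intact range of 1.65 to 2.40 CPM. TREX1 and ZBP1 had too few counts to be tested.

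**Figure D3:**
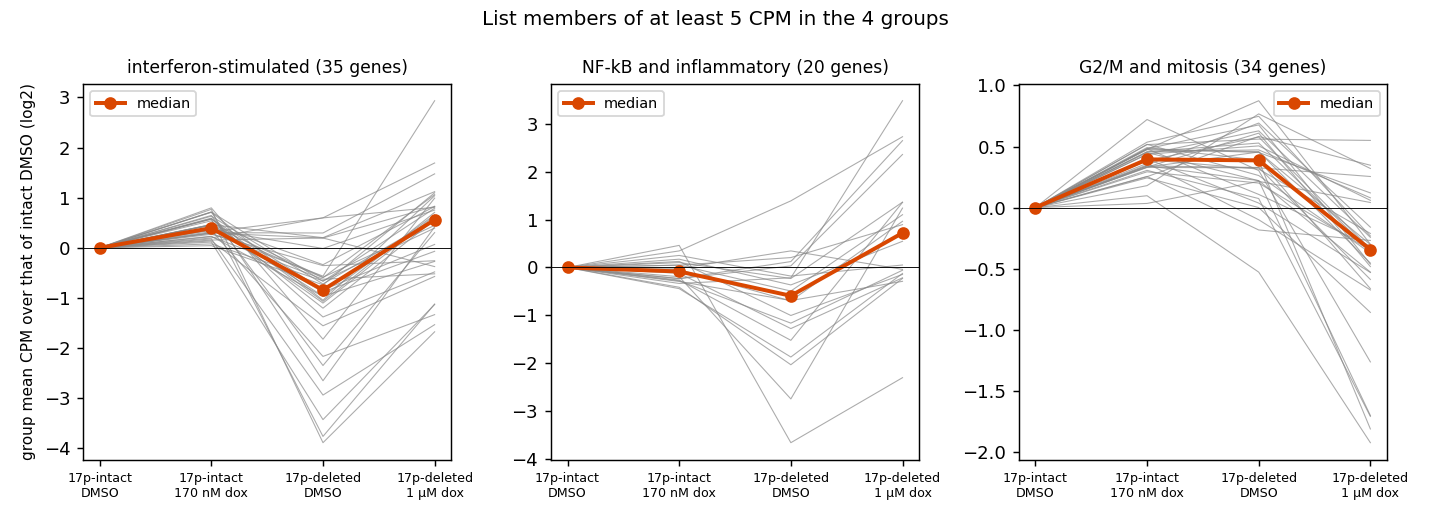
Group mean CPM relative to intact DMSO (log2, y axis) in the 4 groups (x axis) for members of at least 5 CPM of 3 lists; grey lines are genes and the orange line is the median. The median of interferon-stimulated genes was 0.39 in intact doxorubicin, -0.84 in deleted DMSO and 0.56 in deleted doxorubicin; that of NF-kB genes was -0.08, -0.59 and 0.72, and that of G2/M genes 0.40, 0.39 and -0.34.

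NF-kB and inflammatory genes had 23 of 29 tested members higher and none lower, with a median of 1.56. In deleted cells 24 rose, and in intact cells none passed by edgeR's test, with 8 at an unadjusted p under 0.05. In DMSO, 16 of the 29 were lower in deleted cells (16.2% of all genes tested). Ligands showed the largest differences. CXCL8, a neutrophil-attracting chemokine (chromosome 4, 73740506 to 73743716), was at 18.4, 18.3 and 19.7 CPM in intact DMSO, 15.3, 15.4 and 16.2 in intact doxorubicin, 5.92, 6.53 and 7.19 in deleted DMSO and 47.5, 49.9 and 47.5 in deleted doxorubicin. The 4 groups did not overlap, and deleted cells moved from the lowest to the highest level. The response difference was 3.15 ± 0.14 (SE), adjusted p = 1.50e-08.

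IL1A, an alarm cytokine, was at 1.19 to 1.77 CPM in the 9 other libraries and at 17.2, 18.9 and 19.5 CPM in deleted doxorubicin, a response difference of 4.04 ± 0.19 (SE), and IL1B differed by 2.76. CXCL10 had no counts in deleted DMSO and was at 0.127 to 0.335 CPM in deleted doxorubicin, near the depth limit, so its fitted value is not given. Among inhibitors, TNFAIP3 differed by 2.56 and NFKBIA, which holds NF-kB in the cytosol, by 0.73. Among subunits, RELB differed by 1.49, NFKB2 by 0.74 and NFKB1 by 0.64, while REL did not pass at -0.02 (interval -0.70 to 0.66). TNF was not tested, with at most 22 counts in a library.

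Immediate-early genes, which respond to signalling within a short time, had 18 of 22 tested members higher and none lower (median 1.12). ATF3, a stress transcription factor, was at 7.73 to 10.2 CPM in the 9 other libraries and at 157 CPM in each treated deleted library, a response difference of 4.01 ± 0.14 (SE), adjusted p = 3.28e-09. JUN was at 136 CPM or below in the 9 others and at 263, 260 and 255 CPM in deleted doxorubicin, a response difference of 1.56 ± 0.11. In both genes the treated deleted libraries stood apart from the rest. EGR2 differed by 4.55 and EGR1 by 1.28, while FOSL1, an AP-1 subunit, did not pass at -0.18.

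Of 32 apoptosis regulators, 11 were higher and none lower (median 0.33). Initiators and antagonists were both among them: PMAIP1, a proapoptotic protein, differed by 1.75 ± 0.19, CASP10, an initiator caspase, by 1.68 ± 0.17 and APAF1, the apoptosome scaffold, by 1.43, as did the survival genes BCL2L1 by 0.89 and MCL1 by 0.47. CYCS, cytochrome c, did not pass at 0.33.

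Stress responses of the endoplasmic reticulum were split, with 6 of 22 members higher and 6 lower (median -0.14). ERN1, a stress sensor kinase, was at 10.2 to 20.7 CPM in the 9 other libraries and at 70.3, 66.2 and 68.1 CPM in deleted doxorubicin, a response difference of 1.69 ± 0.16 (SE). SESN2, also a p53 target, differed by 1.74, and DDIT3, a stress transcription factor, by 1.11. The chaperone genes HSPA5 and HSP90B1 differed by -0.54 and -0.62. Cytosolic chaperones were also among the 5 most abundant genes past the threshold. HSPA8 was at 2295, 2151 and 2266 CPM in intact DMSO, 2718, 2584 and 2393 in intact doxorubicin, 1970, 2637 and 2076 in deleted DMSO, and 1067, 1126 and 1087 in deleted doxorubicin, the lowest group without overlap, for a response difference of -1.22 ± 0.15. HSP90AB1 and HSP90AA1 differed by -0.63 each, and the tubulin genes TUBB and TUBA1B by -0.54 and -0.39. HSP90AA1, TUBB and TUBA1B lost their calls under some of the alternatives.

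Of 22 tested NRF2 targets, 3 were higher and 2 lower (22.7%). AKR1B10, an aldo-keto reductase, was at 0.207 to 0.710 CPM in the 9 other libraries and at 10.2 CPM or above in deleted doxorubicin. TXNRD1, thioredoxin reductase, was at 576 to 791 CPM in the 9 others and at 399, 394 and 392 CPM in deleted doxorubicin, a response difference of -0.92 ± 0.12 (SE). The drug's handling genes showed no common direction, with 3 of 22 tested higher and 2 lower. XDH, xanthine oxidoreductase, was at 2.84 to 4.89 CPM in the 9 others and at 25.5, 25.3 and 25.6 CPM in deleted doxorubicin, a response difference of 2.98 ± 0.16. ABCB1, which encodes a drug efflux pump, had at most 6 counts in a library and was not tested. Cholesterol and fatty acid synthesis had 5 of 24 tested members lower and none higher, among them SCD, a desaturase, at -0.78 ± 0.12, and HMGCS1 and NSDHL, enzymes of cholesterol synthesis, at -0.48 and -0.46. With the GC trend removed 10 were lower and 2 higher, without the 2 libraries of high mitochondrial share 8 and 1, and with library totals 3 and 1.

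Collagen and matrix genes moved in both directions, with 8 of 39 tested members higher and 13 lower (53.8%, median -0.17). COL1A1, a fibrillar collagen, was at 2292, 2372 and 2279 CPM in intact DMSO, 1813, 2049 and 1893 in intact doxorubicin, 1460, 1203 and 1328 in deleted DMSO, and 684, 670 and 639 in deleted doxorubicin. Each group lay below the one before it without overlap, and the response difference was -0.73 ± 0.12 (SE). SPARC, a matrix glycoprotein, also differed by -0.73 and LAMB1, a laminin chain, by -1.06. COL7A1, the anchoring fibril collagen, was higher by 3.22 ± 0.32, at 132 to 168 CPM in intact DMSO, 90.7 to 107 in intact doxorubicin, 31.4 to 63.3 in deleted DMSO and 248 to 390 in deleted doxorubicin. TIMP3, a protease inhibitor, differed by 1.81 ± 0.15, although its treated deleted level, 6.39 to 7.19 CPM, stayed far below the intact levels of 25.6 to 38 CPM. FN1, fibronectin, did not pass at -0.04 (interval -0.36 to 0.28).

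Of 21 contractile genes 4 were higher and none lower, with a median of 0.09. The 4 were ACTA2, smooth muscle actin, at 2.28 ± 0.14, CNN1 at 2.50 ± 0.29, MYLK at 1.17 and SMTN at 0.93. In deleted cells 4 of the 21 rose and 7 fell. With the GC trend removed, 5 were higher and 3 lower in the response difference. ACTA2 and FAS lie head to head on chromosome 10 with overlapping annotations, and the strand setting of the counting is not known, so their reads may not be fully separated. Of 21 YAP targets 4 were higher and 2 lower, among them NUAK2 at 1.53 and MYOF at -0.75. Mesenchymal markers had 1 of 18 higher, SNAI2, a transcriptional repressor, at 2.50, and 5 lower, including VIM at -0.61 and CDH2, N-cadherin, at -0.95. Epithelial markers had 4 of 23 tested higher and 2 lower: the keratin genes KRT15, at 4.28 ± 0.26, KRT17, at 3.50 ± 0.32, and KRT19, at 2.22, and the desmosome gene DSP, at 0.82, against OCLN at -1.28 and MUC1 at -0.95. The defining epithelial genes EPCAM and CDH1 did not pass and were near 0. The summed level of the tested epithelial markers was 898 to 920 CPM in intact DMSO, 904 to 1005 in intact doxorubicin, 1080 to 1120 in deleted DMSO and 1233 to 1258 in deleted doxorubicin.

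Markers of other cell types were low throughout. The 9 tested blood cell markers of 19 summed to between 5.67 and 9.95 CPM in every library, with ITGAM, an integrin, higher by 3.40 and CD34 lower by -0.85. The 6 tested endothelial markers of 10 summed to between 1.26 and 2.94 CPM, and none passed edgeR's test, with 1 at an unadjusted p under 0.05. CD3E, MS4A1 and HBB, which define lymphocytes and red cells, had at most 8 counts in a library.

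Ribosomal protein genes had 1 of 42 lower, RPL5 at -0.47 (adjusted p = 0.0492), nuclear respiratory chain genes 2 of 33 lower, among them ATP5F1C at -0.55, and RNA polymerase II subunits 2 of 12 higher and 1 lower (17.0% of all genes tested passed). RPL5 and ATP5F1C lost their calls under several alternatives, and ribosomal protein genes share reads with many pseudogene copies. POLR2A, on 17p, did not pass at -0.27 (interval -0.77 to 0.23). Mitochondrially encoded mRNAs had a median of -1.10, which became -0.13 without the 2 libraries of high mitochondrial share. None of 13 passed in edgeR, where 8 had an unadjusted p under 0.05, and their summed level moved with the 2 libraries of high mitochondrial share. It was 19890 to 27500 CPM in intact DMSO, 25990 to 48440 in intact doxorubicin, 21710 to 64050 in deleted DMSO and 25150 to 28010 in deleted doxorubicin. Of the 13, 12 were called lower with no filter on low counts, 5 without deleted DMSO replicate 1 and none under any other alternative, DESeq2 among them.

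**Figure D4:**
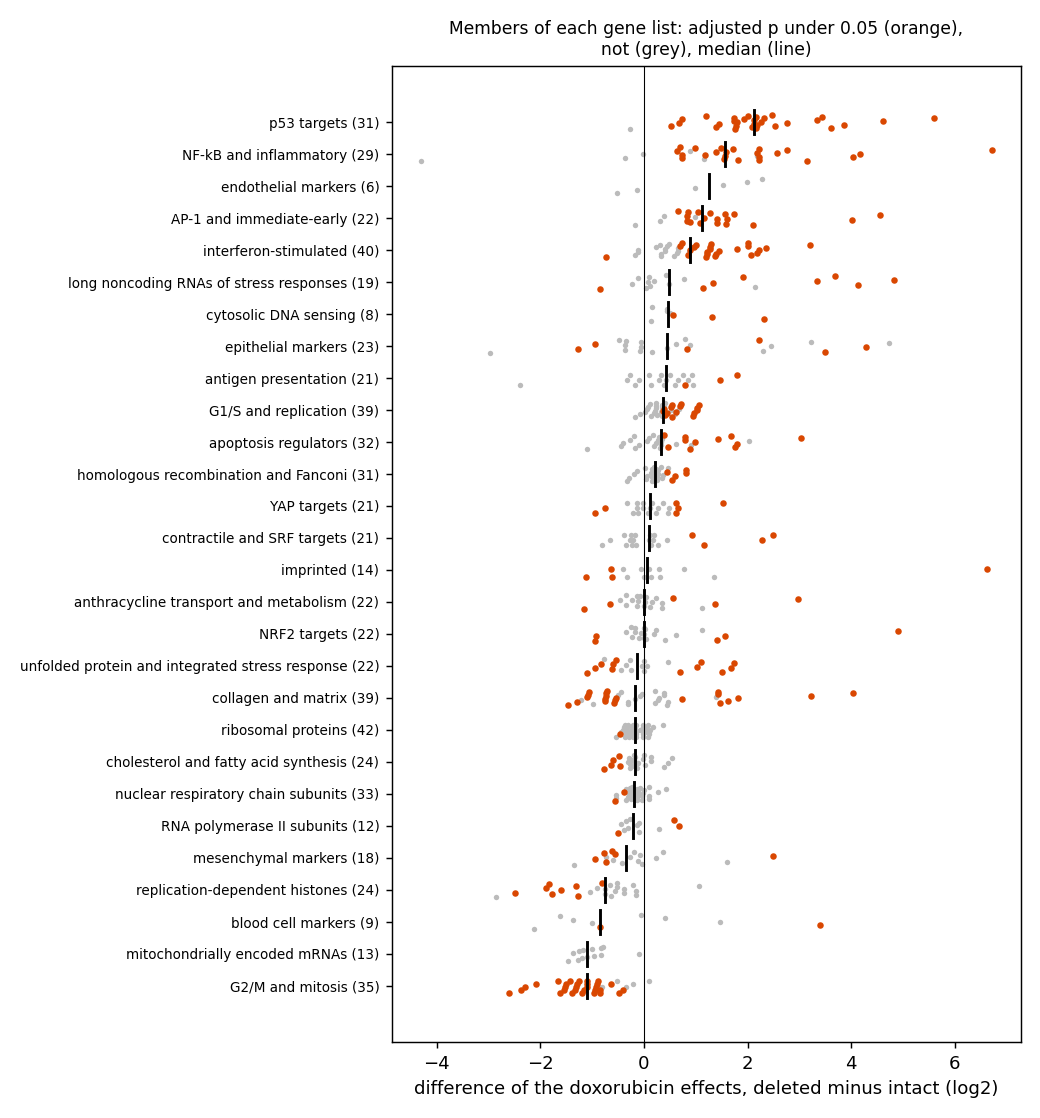
Response difference (log2, x axis) of each tested member of the 28 lists (y axis, number tested in parentheses), in orange where the adjusted p was under 0.05 and in grey where not, with the list median as a line. p53 targets (median 2.12) and G2/M genes (median -1.10) lie at the ends with mostly orange points, whereas mitochondrially encoded mRNAs (median -1.10) have none.

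Among all named genes with at least 5 CPM in the highest and 1 CPM in the lowest group, clone-based names left out, the 8 largest positive response differences were in PURPL, GDF15, NECTIN4, UNC13A, HMCN2, KRT15, RASSF4 and TRAF1, from 4.83 to 4.17. NECTIN4, a cell adhesion molecule (chromosome 1, 161070995 to 161089599), was at 0.752 to 1.43 CPM in the 6 intact libraries, 4.47, 4.70 and 4.88 in deleted DMSO and 115, 110 and 111 in deleted doxorubicin, a response difference of 4.60 ± 0.26 (SE). The genotypes did not overlap in either condition. UNC13A, a factor of synaptic vesicle release, was at 1.02 to 1.69 CPM in the 9 other libraries and at 28.4, 29.8 and 31.1 CPM in deleted doxorubicin, and RASSF4, a Ras-association domain gene, at 3.15 to 8.34 and at 43.7, 50.2 and 50.8 CPM. H19, an imprinted noncoding RNA, was at 0.174 to 1.57 CPM in the 9 others, under the 1 CPM limit of that ranking in intact cells, and at 69.5, 85.3 and 81.7 CPM in deleted doxorubicin, a fitted difference of 6.62 ± 0.45. Of 14 tested imprinted genes 3 others passed, all lower: PEG10 at -1.11, MEST at -0.63 and GRB10 at -0.61.

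Under the same limits the 8 most negative were EVI2B, GPC6, PLK1, AURKA, BCAT1, HMMR, CDH4 and ANK2, from -2.81 to -2.10. GPC6, a glypican, was at 9.15 to 18.8 CPM in the 9 other libraries and at 1.69, 1.65 and 1.74 CPM in deleted doxorubicin, a response difference of -2.77 ± 0.27 (SE). BCAT1, which breaks down branched-chain amino acids, was at 83.3 to 169 CPM in the 9 others and at 21.9, 19.4 and 22.1 CPM, a response difference of -2.31 ± 0.24. CDH4, a cadherin, differed in DMSO in the opposite direction: it was at 53.4, 56.3 and 55.4 CPM in intact DMSO, 32, 37.2 and 35.5 in intact doxorubicin, 128, 94.6 and 116 in deleted DMSO, and 15.5, 15.5 and 17.6 in deleted doxorubicin. Deleted cells were thus above intact cells in DMSO and below them in doxorubicin, and the response difference was -2.14 ± 0.16.

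Of the 13 genes changed in intact cells, 12 also passed in deleted cells and 9 in the response difference. FAM117A (chromosome 17, 49710332 to 49789180) went in opposite directions. It was at 5.99, 6.51 and 6.25 CPM in intact DMSO, 11.8, 11.3 and 9.43 in intact doxorubicin, 10.4, 9.31 and 9.27 in deleted DMSO, and 6.81, 5.76 and 6.91 in deleted doxorubicin. Treated intact and untreated deleted libraries overlapped, as did untreated intact and treated deleted ones. The effect was 0.79 in intact cells (adjusted p = 0.0398) and -0.57 in deleted cells (adjusted p = 0.0027), a response difference of -1.36 ± 0.17 (SE), adjusted p = 9.47e-05. ADAMTS1, a matrix protease, fell from 57.0 to 60.8 CPM to 37.1 to 42.4 CPM in intact cells and rose from 15.6 to 16.7 CPM to 19.4 to 21.6 CPM in deleted cells, a response difference of 0.90 ± 0.12. LCE1C, a cornified envelope gene, was listed at 0 in the 3 treated intact libraries and at 0.0573 to 0.102 CPM in intact DMSO, against 4.79 to 5.68 CPM in deleted doxorubicin, so no fold is given.

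IFIT1, NTRK3 and THBS1 changed the same way in both genotypes and did not pass in the response difference, with IFIT1 close to the threshold as given above. THBS1, a matrix glycoprotein, fell from 419, 421 and 406 to 290, 265 and 310 CPM in intact cells and from 227, 225 and 228 to 140, 137 and 142 CPM in deleted cells. The groups did not overlap, and the response difference was -0.17, with an interval from -0.41 to 0.06. NTRK3, a neurotrophin receptor, fell by 1.11 on the log2 scale in intact and by 1.37 in deleted cells, with an interval of the difference from -0.79 to 0.27. The 13 calls in intact cells are the most fragile of these results: the count was 0 with the replicate number as a block and 0 without any 1 of the 3 intact DMSO libraries, without intact doxorubicin replicate 1 or without its replicate 3, and it reached 220 without deleted DMSO replicate 2.

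The share of genes past the threshold in either direction ran from 12.2% on chromosome 16 to 19.9% on chromosome 10 among the nuclear chromosomes. On 17p it was 15.5%, with 46 genes higher and 16 lower of 399 tested, and on 17q 16.4%. The balance of directions also varied with position. On chromosome 22, 73 genes were higher and 12 lower, and on chromosome 4, 54 were higher and 83 lower. The share past the threshold was 21% of protein-coding genes, 11.4% of lincRNAs, 11.2% of antisense genes and 2.24% of processed pseudogenes. By level it was 8.17% below 1 CPM, 21.8% from 1 to 5 CPM, 25.6% from 5 to 20 CPM and 20.6% at 100 CPM or above.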

How the data were processed

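RNA-seq gene counts of 12 libraries were analysed, 3 in each of 4 groups taken from the sample labels. The authors deposited 1 table of whole-number counts per gene. Per the submitters' processing notes, STAR 2.7.9a, featureCounts of Subread 2.0.1 and the hg38 build were used. Annotation release and strand setting: not given in the sources used here. Gene positions and types are those of GENCODE 29, found for 58429 of 60660 identifiers. Members and lists were chosen with earlier results of these data known.

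In edgeR 4.0.16 (R 4.3.3), genes were filtered with filterByExpr and libraries scaled by TMM. One quasi-likelihood model of the 4 groups was fitted without covariates, and its interaction contrast gave the response difference. P-values were adjusted by Benjamini-Hochberg over all 21803 genes, with a threshold of 0.05. SE is the absolute log2 value over the square root of F, and intervals are at 95%. CPM values use TMM-scaled library sizes. The method was tested on simulated data with libraries drawn independently. It called 59 of 100 genes changed 2-fold and 96 of 100 changed 4-fold in the right direction. Of 162 genes called there, 7 had not been changed. Depth limits low genes: 3 counts, the floor used here, cover counting error only.

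Genes named by rule were CDKN1A, MDM2, TOP2A and POLR2A; the 8 largest and 8 smallest response differences past the threshold (at least 5 CPM in the highest and 1 CPM in the lowest group, no clone-based names); per list the 2 past the threshold with the lowest p and the most abundant that did not pass; up to 5 genes with opposite, and up to 5 with shared, effects in the genotypes; and the 5 most abundant past the threshold. Items withheld from the text are not reported here. Not all genes the rule takes are described, and further list members were named after their values were seen. Genes of 17p were separated from those of 17q by an approximate centromere position.

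Alternatives were DESeq2 size factors (RLE), library totals, no filter on low counts, at least 1 CPM in 3 libraries, DESeq2 1.42.0, voom of limma 3.58.1, the replicate number as a block, removal of each library's GC trend with and without that block, a log2 size of at least 1, leaving out the 2 libraries of highest mitochondrial share, and leaving out each library in turn.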

Additional observations from a re-analysis of the deposited data

Results flagged for a closer look

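The doxorubicin effects of the genotypes differed by a test of the difference itself in 3705 genes, and every gene reported as past the threshold met that condition. FAM117A (-1.36) and ADAMTS1 (0.90, log2) passed in both genotypes with opposite signs. Since the treated groups received 170 nM and 1 µM, genotype and dose cannot be told apart in any of these values.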

How the results depend on the processing

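The response difference was past the threshold in 3705 genes, and in 1984 when a log2 size of at least 1 was also asked; the effect in deleted cells then went from 6684 to 2921 genes. Leaving out 1 library gave 2700 (without deleted doxorubicin replicate 3) to 4596 (without intact doxorubicin replicate 2) genes. The share of higher calls was 60.3%, but 71.3% with library totals, which moved the median of all genes from -0.03 to 0.08, 51.3% with the GC trend removed, 53.1% with that and the replicate block, and 53.6% without the 2 libraries of highest mitochondrial share.

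The 13 calls in intact cells became 48 with library totals, 196 with no low-count filter, 65 with at least 1 CPM in 3 libraries, 467 with DESeq2, 25 with voom, 488 with the GC trend removed, 214 with that and the replicate block, 2 with a log2 size of at least 1, and 195 without the 2 libraries of highest mitochondrial share. Leaving out 1 library gave 0 to 220; the cause was not tested. With the replicate block alone the response difference was past in 2913 genes and the intact effect in 0. Deviations from group means were correlated between libraries of different groups. Of 18 same-numbered pairs, correlations ran from -0.186 to 0.109, with 1 over 0.1. Intact doxorubicin replicate 1 and deleted DMSO replicate 2, the 2 libraries of highest mitochondrial share, correlated at 0.328. Whether the replicate numbers mark a shared batch was not tested further.

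Of 70 named genes past the threshold, 63 stayed past under all 22 alternatives that gave them a value; RPL5, TUBA1B, ATP5F1C, HSP90AA1, TUBB, POLR2D and POLR2B were lost under at least 1. Of 29 named genes not past, 8 passed under at least 1 alternative, among them MKI67, IFIT1, MCM4 and H1-2. None of the 99 changed sign while past the threshold in either setting. Sign changes without a call on either side were not counted, such as CALR, at -0.097 in the main fit and 0.017 with library totals. List counts that moved by over 1.5 times, the size limit left aside, included those higher in G1/S genes (8 to 22), recombination and Fanconi genes (4 to 13), antigen presentation (3 to 8, the latter without intact doxorubicin replicate 2), DNA sensing (3 to 5), epithelial markers (4 to 7) and imprinted genes (1 to 3), and those lower in cholesterol and fatty acid synthesis (3 to 10), mesenchymal markers (4 to 8), ribosomal proteins (0 to 5), nuclear respiratory chain genes (0 to 6), RNA polymerase II subunits (0 to 4) and NRF2 targets (1 to 4). Genes under 3 counts per library are below what this depth resolves.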
